A study of Mus musculus with 4 samples.

Results

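Egr1, Egr2, Egr3, Nr4a1, Nr4a2 and Nr4a3, which T cells switch on when their antigen receptor is engaged, were followed in T cells that border the mouse brain, in the meninges (its membranes) and in the choroid plexus (the tissue that makes cerebrospinal fluid), at a young and at an old age. The 6 genes were chosen by name, and all 6 were present among the 31053 genes of each count matrix. The study sorted CD4 and CD8 T cells by flow cytometry from freshly digested tissue and profiled them by droplet sequencing of the 5′ ends of transcripts. All mice were female C57BL/6, and the labels name no transgene or treatment: young mice were 10 weeks old and aged mice 18 months old. Each age and tissue was a single library pooled from 5 mice, 4 libraries in all. No test across mice was therefore possible and no p-value is given, and the intervals below are 95% intervals that cover counting error only. The 5 mice of a library cannot be told apart.

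Egr1, Egr2 and Egr3 encode zinc finger transcription factors that are transcribed within minutes of receptor signalling and that in T cells act both in activation and in the brake on it. Nr4a1 (Nur77), Nr4a2 (Nurr1) and Nr4a3 (Nor1) encode orphan nuclear receptors, of which Nr4a1 is widely used as a reporter of antigen receptor signal strength, and the family is also high in regulatory and in exhausted T cells. Several stimuli other than antigen induce the same genes, among them the warm enzymatic digestion of tissue, which also induces Fos, an immediate early gene of the AP-1 family, and Hspa1a, which encodes the inducible heat shock protein Hsp70. Fos and Hspa1a were therefore read beside the 6 genes in the same cells.

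In the GRCm38 build (GENCODE vM21), Nr4a1 (ENSMUSG00000023034) lies at chr15:101254269-101274795 and Nr4a3 (ENSMUSG00000028341) at chr4:48045153-48086447, both on the plus strand, and Nr4a2 (ENSMUSG00000026826) at chr2:57106830-57124003 on the minus strand. Egr2 (ENSMUSG00000037868) lies at chr10:67535475-67542188 and Egr3 (ENSMUSG00000033730) at chr14:70077203-70082614, both on the plus strand. The promoter windows of the Nr4a genes and of Fos are given here, written 5′ to 3′ along the gene. They run from 250 bases before to 50 bases after the RefSeq transcription start (GRCm38.p6). Capitals mark TGACG or its reverse complement CGTCA, the core of the cAMP response element bound by CREB and ATF factors. The Nr4a1 start used by the table lies inside the annotated gene.
Nr4a1, chr15:101266596-101266895, plus strand: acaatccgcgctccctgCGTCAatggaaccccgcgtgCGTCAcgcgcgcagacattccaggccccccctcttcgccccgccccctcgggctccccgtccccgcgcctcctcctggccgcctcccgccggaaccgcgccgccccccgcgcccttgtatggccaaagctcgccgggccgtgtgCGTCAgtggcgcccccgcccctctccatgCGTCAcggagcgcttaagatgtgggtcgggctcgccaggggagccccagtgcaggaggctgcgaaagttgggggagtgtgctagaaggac
Nr4a2, chr2:57123954-57124253, minus strand: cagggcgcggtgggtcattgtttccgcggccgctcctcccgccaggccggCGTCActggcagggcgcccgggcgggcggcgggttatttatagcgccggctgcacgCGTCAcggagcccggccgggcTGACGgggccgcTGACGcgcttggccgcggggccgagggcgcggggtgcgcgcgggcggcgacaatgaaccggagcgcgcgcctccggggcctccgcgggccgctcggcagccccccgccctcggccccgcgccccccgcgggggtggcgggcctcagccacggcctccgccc
Nr4a3, chr4:48045055-48045354, plus strand: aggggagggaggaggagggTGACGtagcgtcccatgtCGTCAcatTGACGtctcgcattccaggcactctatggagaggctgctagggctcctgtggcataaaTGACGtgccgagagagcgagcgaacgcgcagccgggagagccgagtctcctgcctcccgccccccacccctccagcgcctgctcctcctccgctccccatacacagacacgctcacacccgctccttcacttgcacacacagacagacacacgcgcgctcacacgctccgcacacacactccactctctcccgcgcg
Fos, chr12:85473640-85473939, plus strand: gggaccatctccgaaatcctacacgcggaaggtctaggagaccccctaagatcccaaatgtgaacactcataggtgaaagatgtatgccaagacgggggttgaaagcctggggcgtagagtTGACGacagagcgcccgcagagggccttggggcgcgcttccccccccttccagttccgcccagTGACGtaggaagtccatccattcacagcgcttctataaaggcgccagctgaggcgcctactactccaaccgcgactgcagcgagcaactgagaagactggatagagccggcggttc

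Each of the Nr4a windows held 4 copies of this core, and the Fos window held 2. Of the 32851 promoter windows in the RefSeq table, 20.8% held at least 1 copy, 5.01% at least 2 and 0.231% at least 4. The Hspa1a window held none. Egr2 has 5 windows in the table, of which the 3 most downstream, which overlap one another, held 2 copies each, at −111 and −55 from the start in the first of them. The full palindromic element (TGACGTCA), which contains the core on both strands, was in none of these windows and in 1.79% of all, and the CArG box of serum response factor was in 4 of the Egr2 windows and in 1.63% of all. The AP-1 site (TGACTCA, either strand) was in none of these windows and in 5.2% of all. A TATA box (TATAA) was in the Fos window and in the most downstream Egr2 window, and in 17.5% of all. Of the 8 genes looked up, 6 had a window that was read, and Egr1 and Egr3 had none. The lookup did not cover every chromosome, so the table was not shown to lack Egr1, whose position was not read either. These matches are descriptions of the sequence and were not tested against the expression data.

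Cells with 200 to 7000 genes and at most 5% mitochondrial UMIs (unique molecular identifiers, which count RNA molecules) and with a UMI of Cd3d, Cd3e or Cd3g were kept as T cells. Young mice gave 1007 T cells from the meninges and 605 from the choroid plexus, and aged mice 1408 and 1094, and the median cell held 3198, 2978, 2312.5 and 2838.5 UMIs in that order. Cells in which Cd4 was found but neither Cd8 gene (Cd8a, Cd8b1) were taken as CD4 T cells (254, 160, 362 and 230 cells), those with a Cd8 gene but no Cd4 as CD8 T cells (254, 160, 281 and 473), and those lacking UMIs of all 3 genes are called neither T cells (481, 269, 735 and 358). The neither class is a class of missing UMIs, not a cell type, and can hold CD4 and CD8 T cells, and cells with UMIs of both (18, 16, 30 and 33) were left out. Each library crossed with each class made a pool, 12 in all, and a gene's level is its summed UMIs per 1000000 UMIs of the pool (CPM). Shares of cells with a UMI were taken after thinning every cell to 1000 UMIs. The libraries shared 8 cell barcodes over all pairs. Haemoglobin UMIs were in 8.36% of the thinned T cells of aged meninges, in 1.83% of young meninges and in 0.172% and 0.288% of young and aged choroid plexus. B cell marker UMIs (Cd79a, Cd79b, Ms4a1, Ighm) were in 11.7% to 19.9% in the 4 libraries. Cd79a and Ms4a1 were both at 0 in young meningeal CD4 and CD8, young choroid plexus CD8 and neither, and aged choroid plexus CD8 T cells. Ms4a1 alone was at 0 in young choroid plexus CD4 T cells. Cd79a alone was at 0 in aged meningeal CD8 and aged choroid plexus neither T cells, and the other pools held UMIs of all 4 markers. Macrophage marker UMIs were in 0.192% to 0.672%, with Adgre1 at 0 in all 4 libraries, and fibroblast marker UMIs in at most 0.0962%.

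T cells of the meninges carried far more UMIs of the 6 genes than T cells of the choroid plexus, at both ages. In T cells thinned to 1000 UMIs, 17.0% (interval 14.7 to 19.5, exact Clopper-Pearson) had a UMI of at least 1 of the 6 genes in young meninges and 24.0% (21.7 to 26.3) in aged meninges. In choroid plexus the share was 1.54% (0.708 to 2.91) in young mice and 3.27% (2.27 to 4.54) in aged mice. Without thinning the shares were 33.4%, 42.1%, 3.57% and 7.35% in the same order. The 6 genes together had 203.8, 399.4, 18.1 and 52.4 CPM. The shares and levels of both meningeal libraries lay above those of both choroid plexus libraries, with no overlap of intervals. No cell type known to lack these genes was sorted, so a background share from free RNA in the droplets could not be read directly. Within a library the classes differed, as given below for Nr4a1.

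Nr4a1 had the most UMIs of the 6 genes in both meningeal libraries, 409 of 703 in young and 697 of 1458 in aged mice, although in CD8 T cells of aged meninges Nr4a2 had more (116 against 83 UMIs). In CD4 T cells it stood at 168.1 CPM (142.2 to 197.4) in young and 228.1 (199.7 to 259.5) in aged meninges, against 6.04 (1.25 to 17.6) in young and 20.8 (11.6 to 34.3) in aged choroid plexus. In CD8 T cells the 4 values were 52.0, 91.7, 1.58 and 5.76 CPM, and in neither T cells 136.1, 221.1, 4.96 and 27.1 CPM. All 6 meningeal pools lay above all 6 choroid plexus pools, and the choroid plexus pools rested on 1 to 27 UMIs each. In order of level, aged CD4 and aged neither T cells of the meninges came first and did not differ beyond their intervals, followed by the young CD4 and neither pools, which also overlapped, then aged CD8 and young CD8 T cells.

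Nr4a2 was highest in aged meninges in every class. It stood at 128.2 CPM (105.9 to 153.7) in CD8, 109.7 (94.6 to 126.4) in neither and 92.8 (75.0 to 113.6) in CD4 T cells of aged meninges, and at 33.1, 16.6 and 20.3 CPM in the same classes of young meninges. In choroid plexus it stood at 15.8 CPM in young CD8 T cells, where 7 of its 10 UMIs came from 1 cell, and at 2.77 to 8.07 CPM in the aged classes. The young CD4 and neither pools of the choroid plexus had no Nr4a2 UMI, which at a limit of 3 counts allows up to 6.04 and 3.72 CPM. The 3 aged meningeal pools overlapped each other and lay above the other 9.

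Nr4a3 was also highest in aged meninges in every class, followed by young meninges. In aged meninges it stood at 68.7 CPM in neither, 57.5 in CD8 and 52.3 in CD4 T cells, and in young meninges at 35.8, 26.5 and 31.6 CPM. The choroid plexus pools held 0 to 10 UMIs of Nr4a3, and the highest of them was aged CD4 T cells at 13.9 CPM (6.64 to 25.5).

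The Egr genes had few UMIs in all libraries. Egr1 was found at 29.3 CPM in CD4, 15.1 in CD8 and 28.5 in neither T cells of young meninges and at 30.6, 19.9 and 27.7 CPM in aged meninges. In choroid plexus it stood at 8.05, 0 and 8.68 CPM in young and 29.1, 6.34 and 23.0 CPM in aged mice. The CD4 and neither pools of aged choroid plexus thus lay within the intervals of the meningeal pools of their own class for Egr1, whereas for Nr4a1 they lay far below. These Egr1 levels rested on few cells. In the CD4 pool 21 UMIs came from 11 cells, 6 of them from 1 cell. In the neither pool 23 UMIs came from 10 cells, 9 of them from 1 cell. Without thinning, 4.78% and 2.79% of the cells in these pools had an Egr1 UMI, against 7.18% and 5.71% in aged meninges. Egr2 had at most 14 UMIs and Egr3 at most 7 UMIs in any of the 12 pools, so that levels of both were too sparse to order. The highest Egr2 level, 19.4 CPM (10.6 to 32.5), was in aged choroid plexus CD4 T cells, where 14 UMIs came from 6 cells and 5 of the UMIs from 1 cell.

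**Figure D1:**
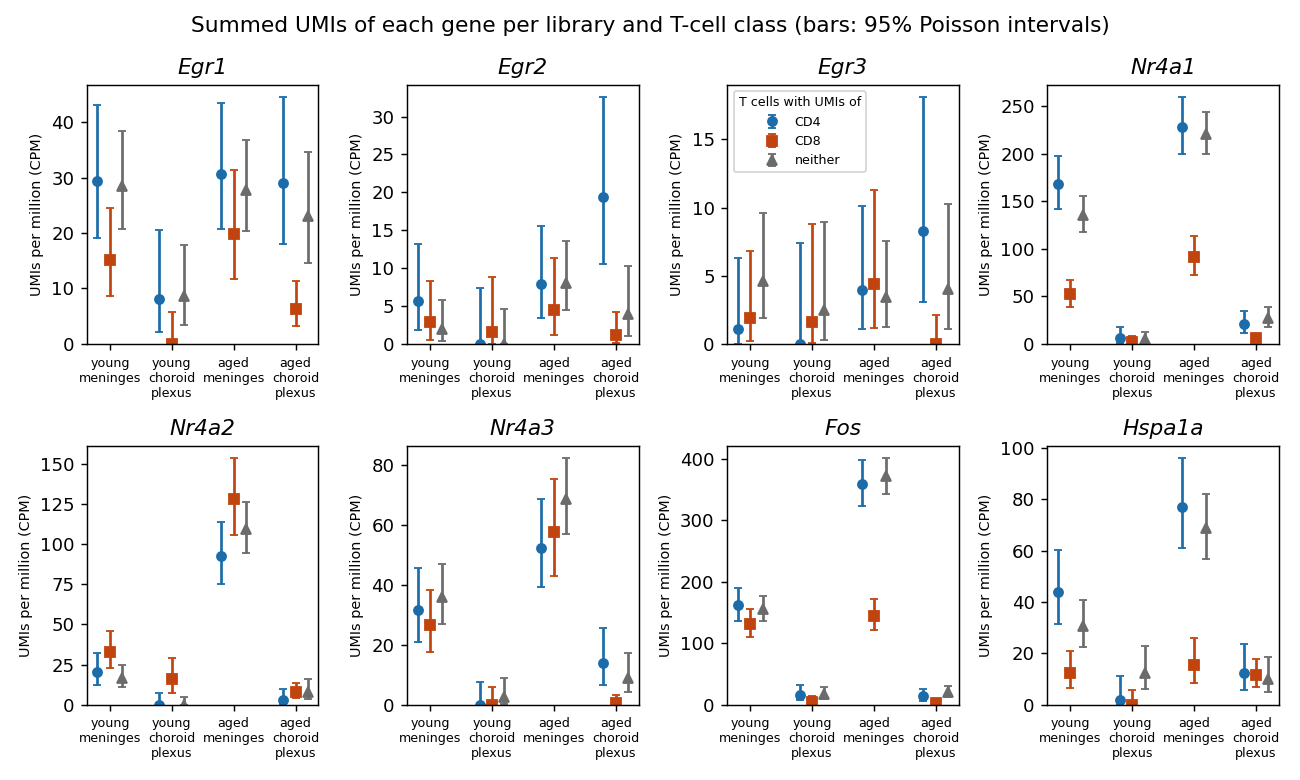
Level of each of the 6 genes and of Fos and Hspa1a in CPM (vertical axis, a scale of its own per gene) for the 4 libraries (horizontal axis) and 3 T-cell classes (circles CD4, squares CD8, triangles neither), with 95% Poisson intervals as bars. Nr4a1 lies between 52.0 and 228.1 CPM in the meninges and between 1.58 and 27.1 in the choroid plexus, whereas Egr1 in aged choroid plexus CD4 T cells reaches 29.1 CPM, close to the 30.6 of aged meninges.

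To compare the tissues within an age, a gene was counted as higher when it had at least 20 UMIs in the higher pool and a log2 ratio of at least 1 after adding 10 CPM to both levels. This comparison was added after the data had been seen. Nr4a1 passed this rule in all 6 comparisons of meninges with choroid plexus. In CD4 T cells it was 27.8-fold higher in meninges in young mice (exact interval of the ratio 9.34 to 136.5, log2 ratio 3.47) and 11.0-fold higher in aged mice (6.52 to 19.9, log2 ratio 2.95). In CD8 T cells it was 33.0-fold (5.68 to 1327) and 15.9-fold higher (8.24 to 34.4), the former set against 1 UMI in the choroid plexus.

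Nr4a3 also passed in all 6 comparisons. In young CD4 and CD8 T cells, where the choroid plexus pool had no Nr4a3 UMI, it was at least 5.23-fold and at least 5.60-fold higher in meninges, taking 3 counts as the limit of a pool at 0, and the exact intervals of the ratio began at 3.98 and 4.26. In aged CD4 T cells the log2 ratio of 1.39 fell to 0.46 when cells were thinned before summing. Nr4a2 passed in the 3 aged classes, being 33.5-fold higher in CD4 (9.02 to 280.8, on 2 UMIs in choroid plexus), 15.9-fold in CD8 and 13.7-fold in neither T cells, and in young neither T cells (at least 4.46-fold by the same limit, exact interval from 3.37). Egr1 passed in young CD4 (3.64-fold, 1.26 to 14.4) and young neither T cells (3.29-fold, 1.47 to 8.67). Both Egr1 calls ended under an alternative, at a log2 ratio of 0.43 in place of 1.12 in CD4 T cells when 2 UMIs were asked for to call a class, and of 0.078 in place of 1.05 in neither T cells without the cells holding Fos or Hspa1a UMIs. In aged mice the Egr1 ratio of meninges to choroid plexus was 1.05 (0.586 to 1.93) in CD4 and 1.20 (0.717 to 2.07) in neither T cells.

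Of the 6 genes, 3, 3 and 4 had at least 20 UMIs in a pool of young CD4, CD8 and neither T cells, and 4, 3 and 4 in the aged classes. In young CD4, CD8 and neither T cells 3, 2 and 4 were called higher in meninges, and 3 in each aged class, and none was called lower. Of all genes with at least 20 UMIs in either pool, 3.07%, 1.68% and 1.62% were higher in the young classes and 1.95%, 0.939% and 1.24% in the aged classes in the same order, while 0.678%, 1.04% and 0.457% were lower in the young and 0.316%, 0.441% and 0.253% in the aged classes. The median log2 ratio over the 6 genes was between 0.72 and 1.77 in these comparisons, and that over all genes between −0.04 and 0.10.

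Fos was higher in meninges in all 6 comparisons as well. It stood at 161.4 CPM in young and 358.5 in aged meningeal CD4 T cells against 16.1 and 13.9 CPM in choroid plexus, and at 131.5 and 144.7 CPM in CD8 T cells against 4.73 and 3.46. Hspa1a passed in CD4 T cells at both ages (44.0 against 2.01 CPM in young and 77.0 against 12.5 in aged mice) and in aged neither T cells, but in aged CD8 T cells it stood at 15.5 CPM in meninges and 11.5 in choroid plexus, a ratio of 1.34 (0.627 to 2.79). That ratio rested on 14 UMIs in meninges and 20 in choroid plexus. In that class Nr4a1, Nr4a2 and Nr4a3 were all past the rule. So were 2 of the 10 measured genes of the heat shock list read below, Hspa1b and Dnajb1, where 0.939% of all genes were higher. The part that digestion and handling of each tissue had in the difference cannot be told apart from the tissue, since each tissue at each age was prepared as 1 library.

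**Figure D2:**
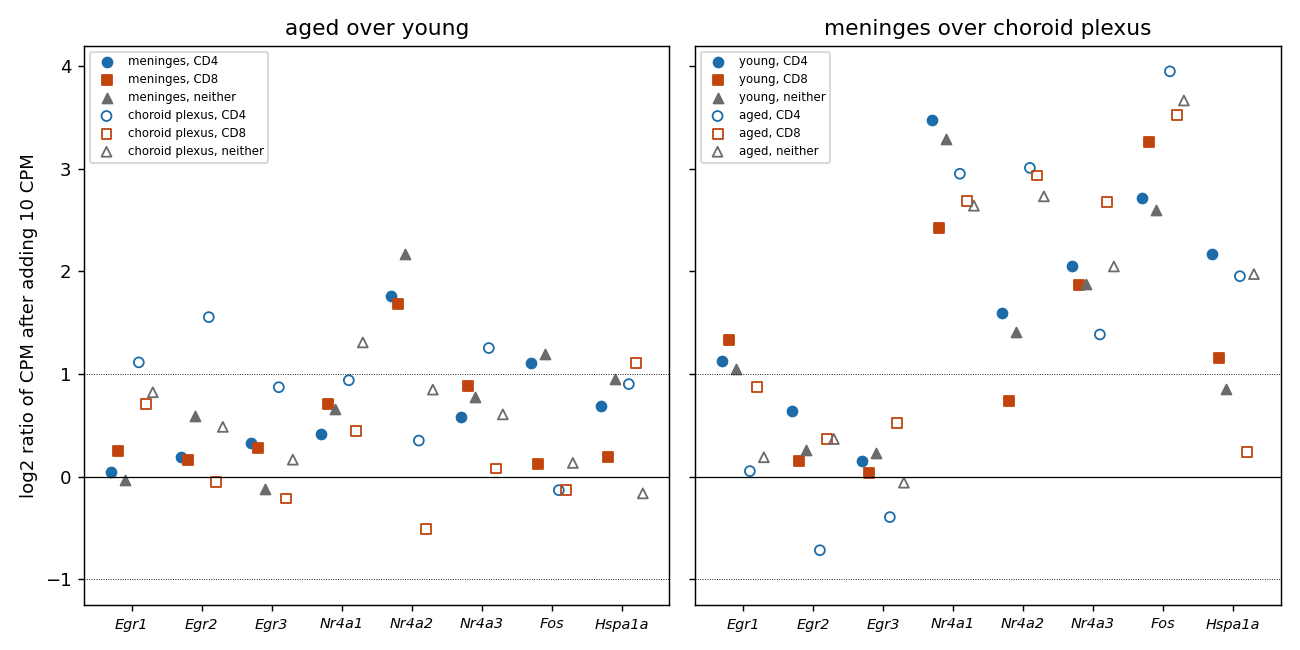
Log2 ratio (vertical axis, after adding 10 CPM) of aged over young (left) and of meninges over choroid plexus (right) for the 6 genes, Fos and Hspa1a, by T-cell class (marker shape and colour), with filled markers for the first and open markers for the second group named in each legend. Dotted lines mark the size of 1 used in the rule. On the left Nr4a2 lies at 1.68 to 2.17 in the meninges, and on the right the Nr4a genes and Fos lie mostly above 1 while Egr1 in aged CD4 T cells lies at 0.055.

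Between ages, Nr4a2 was the member of the family that passed the rule in the meninges, and it did so in all 3 classes. It was 4.57-fold higher in aged CD4 (2.74 to 8.05), 3.87-fold in aged CD8 (2.63 to 5.82) and 6.61-fold in aged neither T cells (4.34 to 10.5), or 1.76, 1.68 and 2.17 on the log2 scale. In the thinned cells a Nr4a2 UMI was found in 2.37% in young and 5.62% in aged CD4, 3.15% and 6.93% in CD8, and 2.32% and 7.75% in neither T cells. The intervals of these shares overlapped between ages in CD4 (0.875 to 5.09 and 3.47 to 8.54) and CD8 T cells (1.37 to 6.11 and 4.23 to 10.6) and did not in neither T cells (1.16 to 4.11 and 5.89 to 9.96). In aged meninges up to 12 Nr4a2 UMIs came from 1 cell.

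Nr4a1 and Nr4a3 were higher in aged meninges by less than the rule asks. The ratio of aged to young was 1.36 (1.10 to 1.68), 1.76 (1.24 to 2.53) and 1.62 (1.37 to 1.93) for Nr4a1 in CD4, CD8 and neither T cells, and 1.66 (1.03 to 2.72), 2.17 (1.34 to 3.57) and 1.92 (1.38 to 2.69) for Nr4a3. All 6 of these intervals lay above 1, but they take each UMI as a separate count although 1 cell can give several. In the thinned cells the share with a Nr4a1 UMI was 0.763, 1.23 and 2.48 percentage points higher in aged mice, in the same order. For Nr4a3 the differences were 0.718, 0.836 and 3.60 points. For Egr1 the ratios were 1.04 (0.600 to 1.83), 1.31 (0.632 to 2.75) and 0.971 (0.630 to 1.50), and each interval included 1. At least 20 UMIs in a pool were reached by 4, 3 and 4 of the 6 genes in CD4, CD8 and neither T cells. In each meningeal class 1 of 6 genes was called higher, where 4.23%, 3.2% and 3.44% of all measured genes were called higher in the same order, and none was called lower, where 1.86%, 1.83% and 1.42% were.

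Fos passed the rule between ages in CD4 and neither but not in CD8 T cells of the meninges. In CD8 T cells of the meninges Fos stood at 131.5 CPM in young and 144.7 in aged mice, a ratio of 1.10 (0.860 to 1.41), while in CD4 and neither T cells it was 2.22-fold and 2.38-fold higher in aged mice. Of a list of 14 immediate early genes that holds Fos, 3 were higher in aged mice in meningeal CD8 T cells (Fosb, Ier3 and Dusp1, of which Dusp1 went from 142.9 to 299.4 CPM), 3 in CD4 T cells (Fos, Jund and Dusp1) and 6 in neither T cells, and 1 in each class of the choroid plexus. In meningeal CD4, CD8 and neither T cells 12, 13 and 14 of the list were measured, and 4.23%, 3.2% and 3.44% of all genes were higher. In the choroid plexus 9, 10 and 11 were measured, and 7.27%, 2.46% and 4.62% of all genes were higher. Hspa1a was below the rule in all 3 meningeal classes, with ratios of 1.75 (1.18 to 2.64), 1.26 (0.548 to 2.91) and 2.25 (1.59 to 3.23) in CD4, CD8 and neither T cells. The CD4 and neither intervals lay above 1. Haemoglobin UMIs were also more common in aged than in young meninges, as given above, and their part in these differences was not tested. In the CD8 T cells of the meninges, once thinned, the share with a gamma-delta T-cell marker UMI was 2.36% in young and 20.8% in aged mice, and the share with a B cell marker UMI was 18.5% and 4.01%. Of the 5 gamma-delta markers 4 were found at each age, with Trdv4 at 0. Of the B cell markers Cd79a was at 0 at both ages, and Ms4a1 was also at 0 in young mice. Without the cells holding gamma-delta or natural killer marker UMIs, the log2 ratio of the summed genes in meningeal CD8 T cells was 0.88 in place of 1.16, below the size of the rule. Among the thinned T cells of aged meninges, the share with a UMI of the 6 genes was 20.5% of the cells with haemoglobin UMIs and 24.3% of those without.

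In the choroid plexus the 6 genes rested on 35 UMIs in young and 181 in aged mice. Summed over the 6 genes, CD4 T cells rose from 14.1 to 94.2 CPM (6.68-fold, 3.07 to 17.3) and neither T cells from 18.6 to 75.2 CPM (4.04-fold, 2.30 to 7.58), while CD8 T cells stood at 20.5 and 21.9 CPM (1.07-fold, 0.557 to 2.19). Single genes past the rule were Egr1 in CD4 T cells (3.61-fold, 1.22 to 14.5) and Nr4a1 in neither T cells (5.46-fold, 1.90 to 21.5). Both calls ended under alternatives, with log2 ratios as low as 0.50 in place of 1.11 for Egr1 (thinned before summing) and 0.20 in place of 1.31 for Nr4a1 (without cells holding marker UMIs of other cell types). That made 1, 0 and 1 of 6 genes called higher in CD4, CD8 and neither T cells, where 7.27%, 2.46% and 4.62% of all measured genes were, and none called lower, where 1.92%, 0.872% and 1.83% were. At least 20 UMIs in a pool were reached by 1, 0 and 2 of the 6 genes. In the thinned cells the share with a UMI of the 6 genes was 1.26% (0.153 to 4.47) in young and 4.80% (2.42 to 8.43) in aged CD4 T cells, intervals that overlapped. Fos in these CD4 T cells stood at 16.1 CPM in young and 13.9 in aged mice (ratio 0.860, 0.306 to 2.51). Hspa1a passed the rule in choroid plexus CD8 T cells, from 0 to 11.5 CPM (at least 2.44-fold at the limit of 3 counts, exact interval from 1.80), a class in which the 6 genes together did not.

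With 2 UMIs of Cd4 or of the Cd8 genes asked for in place of 1, the CD4 log2 ratio of the summed genes in choroid plexus was 1.29 in place of 2.11, and the difference in share turned from 3.55 to −1.14 percentage points. Without cells holding marker UMIs of other cell types, the neither ratio was 0.47 in place of 1.57 and the CD8 ratio −1.20 in place of 0.07, and the CD4 ratio was 2.56. This filter read UMIs before thinning, where B cell marker UMIs were common. They were in 46.5% of young and 33.8% of aged neither T cells of the choroid plexus, and in 43.8% and 18.2% of CD8 T cells. Cd79a was at 0 in each of these pools, and so was Ms4a1 in all but the aged neither pool. Macrophage marker UMIs in choroid plexus CD4 T cells stood at 26.2 CPM in young and 193.9 in aged mice, with 3 and 6 of 7 marker genes found and Adgre1 at 0 at both ages, and were in 1.26% and 0.437% of the thinned cells. Gamma-delta marker UMIs were in 2.55% of young and 27.5% of aged choroid plexus CD8 T cells, and without the cells holding gamma-delta or natural killer marker UMIs the CD8 ratio was 0.12. The causes of the moves were not tested.

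Nr4a1 was higher in CD4 than in CD8 T cells in both meningeal libraries. It was 3.23-fold higher in young meninges (2.36 to 4.49) and 2.49-fold higher in aged meninges (1.93 to 3.24), and after thinning 15.8% against 3.15% of young and 16.6% against 4.38% of aged meningeal CD4 and CD8 T cells had a Nr4a1 UMI. In choroid plexus it was not called at either age. The ratio there was 3.83 (0.308 to 201.2) on 3 and 1 UMIs in young mice. In aged mice it was 3.61 (1.52 to 8.98) on 15 and 10 UMIs. Nr4a2 leaned the other way, with a ratio of CD4 to CD8 of 0.613 (0.327 to 1.11) in young and 0.724 (0.546 to 0.959) in aged meninges, below the size the rule asks. Nr4a3 was at 1.19 and 0.911, with intervals that included 1. 

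Egr1 was 4.59-fold higher in CD4 than in CD8 T cells of aged choroid plexus (2.12 to 10.5). This rested on 21 and 11 UMIs, and 6 of the CD4 UMIs came from 1 cell. After thinning, 1.75% of the CD4 (0.478 to 4.41) and 0.644% of the CD8 T cells (0.133 to 1.87) had an Egr1 UMI, intervals that overlapped. Called genes were 1 of 6 as higher in CD4 T cells of young meninges, aged meninges and aged choroid plexus and 0 of 6 in young choroid plexus, where 1.76%, 3.43%, 2% and 1.44% of all measured genes were called higher. None was called lower in CD4 T cells, where 1.04%, 1.09%, 1.35% and 2.1% of all genes were, and 4, 4, 1 and 0 of the 6 genes had at least 20 UMIs in either class. Hspa1a showed a CD4 over CD8 difference in both meningeal libraries (3.58-fold in young, 4.98-fold in aged), and Fos in aged meninges (2.48-fold). A median-ratio scaling would lower every CD4 over CD8 log2 ratio by 0.12 to 0.16, which leaves the meningeal Nr4a1 values past the rule.

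In both meningeal libraries and in aged choroid plexus, cells with UMIs of 2 or more of the 6 genes were more frequent than expected. The expected number came from the product of the single shares within each class, summed over the classes. In the thinned T cells of aged meninges there were 56 such cells against 34.8 expected if the genes were found independently (ratio 1.61, 1.22 to 2.09), and in young meninges 18 against 9.96 (1.81, 1.07 to 2.86). In aged choroid plexus there were 7 against 1.03 (6.78, 2.73 to 14.0), and in young choroid plexus 0 against 0.0266. By class, the interval of the ratio lay above 1 in CD4 and CD8 T cells of aged meninges (from 1.17 and 1.10) and of aged choroid plexus (from 1.13 and 7.54). It included 1 in every class of young meninges and in the neither T cells of both aged libraries. The aged choroid plexus ratios rested on 3 of 11 CD4 and 2 of 5 CD8 T cells with a UMI of the 6 genes. Their intervals reached 16.1 and 225.0, and they take the expected number, which came from the same few cells, as fixed. Without thinning the counts were 67 against 51.2, 4 against 0.355, 184 against 143.3 and 15 against 4.37 in young meninges, young choroid plexus, and the aged meninges and choroid plexus. Cells differ in type and in RNA content, which also raises such counts, and this part was not tested.

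Among pairs in thinned aged meninges, Nr4a1 and Nr4a2 were found together in 24 cells against 12.6 expected (ratio 1.91, 1.22 to 2.84), Nr4a1 and Nr4a3 in 15 against 9.72 (1.54, 0.864 to 2.55), and Nr4a2 and Nr4a3 in 10 against 5.17 (1.93, 0.928 to 3.56). The first of these intervals lay above 1. In the same cells Egr1 and Egr2 were found together in 1 cell (ratio 4.86, 0.123 to 27.1), Egr2 and Egr3 in 1 and Egr1 and Egr3 in 0, and in young meninges each of these pairs was in 0 cells. Without thinning, Egr2 and Egr3 shared 5 of their 23 and 11 cells in aged meninges against 0.180 expected, and 4 of their 11 and 7 cells in aged choroid plexus against 0.112. Egr1 and Egr2 shared 4 of 51 and 8 cells in young meninges against 0.415, 7 of 81 and 23 cells in aged meninges against 1.37, and 4 of 29 and 11 cells in aged choroid plexus against 0.405.

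**Figure D3:**
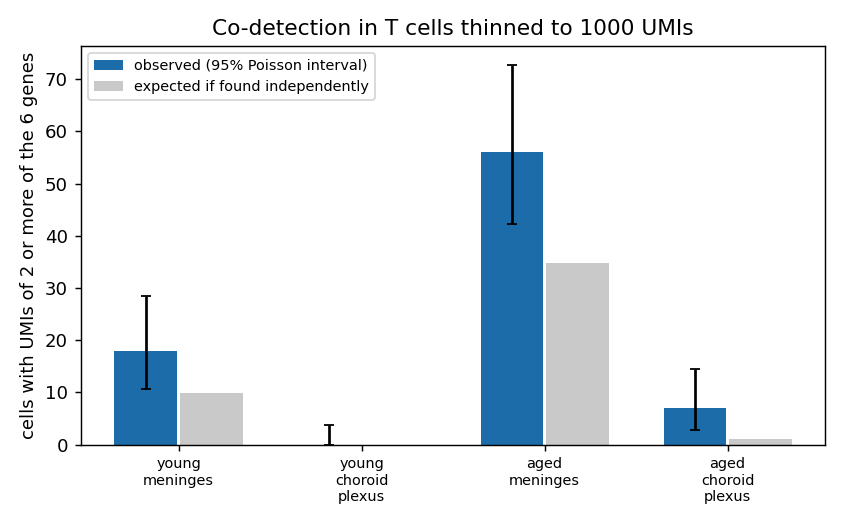
Number of T cells with UMIs of 2 or more of the 6 genes after thinning to 1000 UMIs (blue bars, with 95% Poisson intervals) beside the number expected if the genes were found independently within each class (grey bars), by library. The observed numbers are 18, 0, 56 and 7 from left to right, above the expected 9.96 and 34.8 in the meninges.

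Fos was then used to split the cells. In thinned aged meninges, 33.5% of the 212 cells with a Fos UMI (27.2 to 40.3) and 22.2% of the 1128 cells without (19.8 to 24.7) had a UMI of the 6 genes, and in young meninges 23.1% of 117 (15.8 to 31.8) and 16.2% of 864 (13.8 to 18.8). The intervals did not overlap in aged meninges and did in young meninges. By gene, Nr4a1 was in 21.7% and 11.9% of aged meningeal cells with and without Fos, whereas Nr4a2 was in 16 of 212 cells with (7.55%) and in 78 of 1128 without (6.91%), with intervals that overlapped. In CD8 T cells of young meninges none of the 29 cells with Fos and 27 of the 225 cells without had a UMI of the 6 genes, and the intervals (up to 11.9%, and 8.06 to 17.0) overlapped.

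With Hspa1a in place of Fos, 43.1% of 58 cells with a UMI (30.2 to 56.8) and 23.1% of 1282 without (20.8 to 25.5) had a UMI of the 6 genes in aged meninges. In young meninges the shares were 16.7% of 18 cells (3.58 to 41.4) and 17.0% of 963. For Nr4a2 in aged meninges they were 3.45% (0.420 to 11.9) with and 7.18% (5.82 to 8.73) without Hspa1a. In the choroid plexus only 9 young and 8 aged thinned cells had a Fos UMI, and none of them had a UMI of the 6 genes, with exact intervals up to 33.6% and 36.9%.

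The comparison was repeated in cells with neither a Fos nor a Hspa1a UMI before thinning. In these cells the 6 genes together stood at 212.3 CPM in young and 274.6 in aged meningeal CD4 T cells, against 12.7 and 97.0 in choroid plexus, and in CD8 T cells at 126.0 and 273.8 against 21.1 and 17.5. Intervals did not overlap between tissues in either class at either age. Between ages they overlapped in meningeal CD4 (176.7 to 252.9 and 232.8 to 321.7) and choroid plexus CD8 T cells, and did not in meningeal CD8 and choroid plexus CD4 T cells. The shares of thinned cells with a UMI of the 6 genes, however, overlapped between ages in both of the latter. Their intervals in percent were 7.04 to 16.9 and 9.31 to 18.7 in meningeal CD8, and 0.159 to 4.64 and 2.24 to 8.35 in choroid plexus CD4 T cells. Nr4a2 in the meninges stood at 11.9 CPM in young and 70.0 in aged CD4, 25.8 and 142.0 in CD8, and 15.2 and 117.0 in neither T cells, with intervals that did not overlap between ages in any class. The intervals of its thinned shares overlapped between ages in CD4 (0.141 to 4.14 and 1.89 to 7.62) and CD8 T cells (0.923 to 6.47 and 3.83 to 10.9). In neither T cells they did not (0.834 to 4.21 and 5.70 to 10.8). Nr4a1 in meningeal CD4 T cells stood at 125.7 CPM (98.7 to 157.8) in young and 114.8 (88.4 to 146.7) in aged mice, with intervals that overlapped, whereas in all CD4 T cells of the same libraries they did not (168.1 and 228.1 CPM). In meningeal neither T cells Nr4a1 stood at 97.6 CPM (79.7 to 118.4) in young and 166.2 (142.7 to 192.4) in aged mice, without overlap. In CD8 T cells it stood at 48.7 (33.7 to 68.0) and 60.8 CPM (43.8 to 82.2), with overlap.

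A cell without a Fos UMI can still hold Fos RNA. The selection kept 173 of 254 CD4 T cells in young and 224 of 362 in aged meninges, against 154 of 160 and 217 of 230 in choroid plexus.

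**Figure D4:**
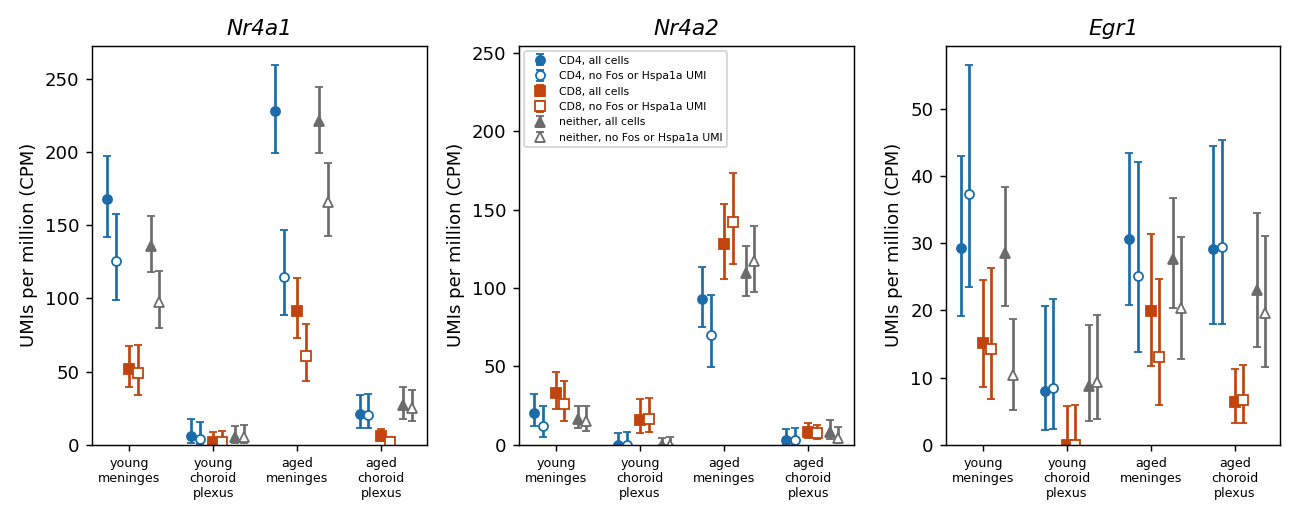
Levels of Nr4a1, Nr4a2 and Egr1 in CPM (vertical axes) by library (horizontal axis) and class, in all cells (filled) and in cells without a Fos or Hspa1a UMI (open), with 95% Poisson intervals. Nr4a2 in aged meningeal CD8 T cells stands at 128.2 CPM in all cells and 142.0 in the cells without Fos and Hspa1a, whereas Nr4a1 in aged meningeal CD4 T cells falls from 228.1 to 114.8.

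The 6 genes were not spread evenly over cell states. Of the aged meningeal CD4 T cells with a UMI of Foxp3, the lineage factor of regulatory T cells, 43.2% (28.3 to 59.0, 44 cells) had a UMI of the 6 genes after thinning, against 20.8% (16.5 to 25.8, 312 cells) of those without. In each of the Foxp3-positive cells with such a UMI, Nr4a1 was among the genes found: 43.2% had a Nr4a1 UMI against 12.8% without Foxp3, and Nr4a1 stood at 375.1 against 193.2 CPM. Nr4a2 did not separate these cells (113.0 CPM, 70.8 to 171.1, against 88.0, 68.9 to 110.9). In the neither T cells of aged meninges 39.7% of 78 Foxp3-positive and 26.3% of 632 other thinned cells had a UMI of the 6 genes, with intervals that overlapped. In aged choroid plexus, over all classes, the summed level was 141.0 CPM in 65 Foxp3-positive cells and 44.2 in 996 others. The others held most of the 473 CD8 T cells of this library. Those stood at 21.9 CPM, against 94.2 in CD4 and 75.2 in neither T cells. This split therefore mixes classes with states, and the part of the classes was not tested.

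Nr4a2 was instead higher in cells with Gzmk, which encodes a granzyme of memory-type cytotoxic T cells. In aged meningeal CD4 T cells it stood at 195.7 CPM (138.5 to 268.6) in 63 Gzmk-positive cells and 68.4 (51.7 to 88.9) in 299 others, whereas Nr4a1 stood at 133.9 and 250.5 CPM. In aged meningeal CD8 T cells Nr4a2 stood at 145.2 CPM (114.6 to 181.4) in 168 Gzmk-positive cells and 104.1 (74.0 to 142.3) in 113 others, intervals that overlapped, and Nr4a1 at 71.6 and 120.1 CPM. In Gzmk-positive CD4 T cells the intervals of Nr4a2 and Nr4a1 (87.5 to 196.2) overlapped, whereas in all CD4 T cells of aged meninges Nr4a1 lay above Nr4a2.

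Cells with Ccr7, the lymph node homing receptor of naïve and central memory T cells, were lower in young meninges. The summed level was 189.3 CPM in 146 Ccr7-positive and 343.4 in 108 other CD4 T cells, and 103.0 and 185.1 CPM in CD8 T cells. In aged meningeal CD4 T cells it was 348.4 CPM in 35 Ccr7-positive and 423.4 in 327 other cells, and 23.5% and 23.6% of them had a UMI of the 6 genes after thinning. Ccr7-positive cells were fewer in aged meninges, and each class compared between ages mixes states in different proportions, whose part in the differences was not tested.

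Cells with Cd69, an early activation and tissue residence antigen, held a UMI of the 6 genes in 33.8% against 20.9% of the other cells in aged meningeal CD4 T cells (23.2 to 45.7 and 16.3 to 26.1), and in 25.0% against 12.4% in CD8 T cells (13.6 to 39.6 and 8.39 to 17.4), with intervals that overlapped in both classes. In aged choroid plexus CD4 T cells, 24 of the 41 Egr UMIs came from the 21 Cd69-positive cells, which held 321.6 CPM of the Egr genes (206.1 to 478.5) against 26.3 (15.3 to 42.0) in the other 209 cells, though after thinning 2 of 21 and 5 of 208 of them had an Egr UMI, with intervals that overlapped. Splits by Cxcr3 and by Tnfsf8, which encodes CD153, gave overlapping shares in meningeal CD4 T cells at both ages. A gate by a UMI is met more often by deeper cells, and the Foxp3-positive CD4 T cells of aged meninges had a median of 3375.5 UMIs against 2221 in the others before thinning.

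**Figure D5:**
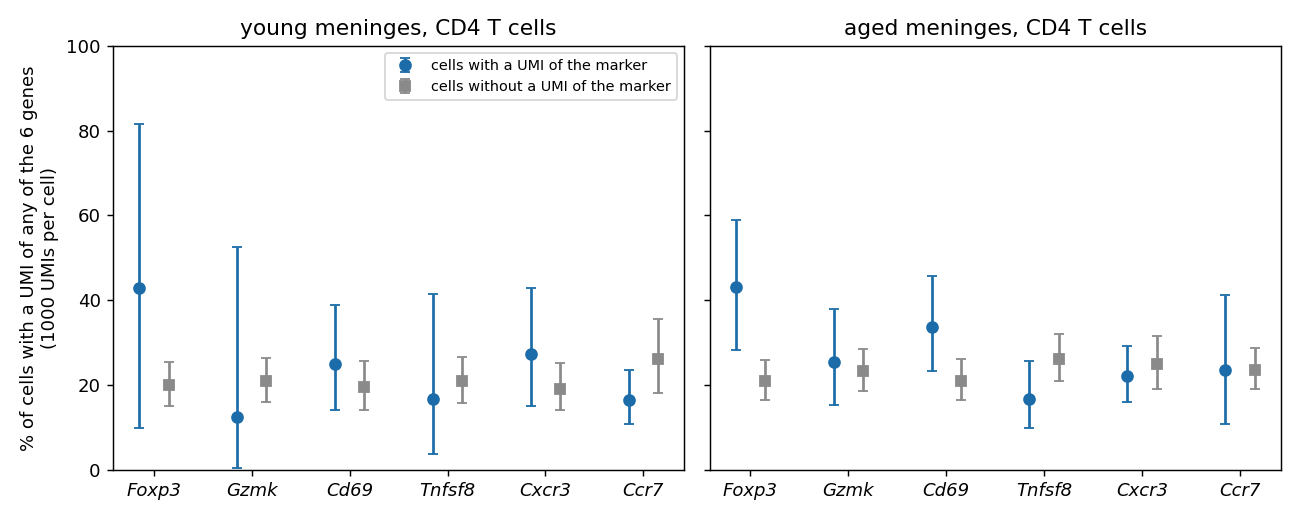
Percentage of meningeal CD4 T cells with a UMI of any of the 6 genes after thinning to 1000 UMIs (vertical axis) among cells with (circles) and without (squares) a UMI of each marker (horizontal axis), for young (left) and aged (right) mice, with exact 95% intervals. In aged meninges the Foxp3-positive cells lie at 43.2% and the other cells at 20.8%.

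Other genes of the receptor response were read from a list of 22 (among them Cd69, Irf4, Tnfrsf4, Nfkbid, Dusp5 and Ccl4). In CD4 T cells 6 of 22 (18 measured, with at least 20 UMIs) were higher in meninges than in choroid plexus in young and 5 (20 measured) in aged mice, with none lower, where 3.07% and 1.95% of all genes were higher. Nfkbid, which encodes an atypical inhibitor of NF-κB, and Dusp5, an ERK phosphatase, were higher in meninges in every class and at both ages. Nfkbid in CD4 T cells stood at 115.1 against 12.1 CPM in young and 181.7 against 65.1 in aged mice. Between ages, Tnfrsf4, which encodes the costimulatory receptor OX40, and the transcription factor Bhlhe40 were higher in aged mice in every class and both tissues: in CD4 T cells Tnfrsf4 went from 109.5 to 369.4 CPM in meninges and from 22.1 to 392.0 in choroid plexus.

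In aged CD4 T cells Tnfrsf4 thus stood at 369.4 CPM in meninges and 392.0 in choroid plexus. Icos, which encodes a costimulatory receptor, was higher in aged CD4 T cells of both tissues (114.0 to 240.0 CPM in meninges and 72.5 to 180.1 in choroid plexus), and so was Ifng, which encodes interferon gamma (26.0 to 114.6 and 10.1 to 73.4 CPM). The chemokine gene Ccl4 fell in aged meningeal CD4 T cells from 409.6 to 152.1 CPM, but was higher in aged CD8 T cells of both tissues (62.4 to 1030 CPM in meninges and 41.0 to 143.5 in choroid plexus). In aged meningeal CD4 T cells 5 genes of the list were higher and 2 lower (21 measured), and in aged choroid plexus CD4 T cells 9 were higher and none lower (17 measured), where 4.23% and 7.27% of all genes were higher and 1.86% and 1.92% lower. The list's median log2 ratio of aged over young was 0.44 in meningeal and 1.12 in choroid plexus CD4 T cells, against 0.08 and 0.16 over all genes.

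Of 14 Egr partners and genes that restrain receptor signalling, 4 were higher and 1 lower in aged CD4 T cells of both tissues (11 measured in meninges and 10 in choroid plexus), against the same shares of all genes. Those higher were the inhibitory receptors Pdcd1, Lag3, Ctla4 and Tigit, of which Pdcd1 went from 46.3 to 161.0 CPM in meninges and from 12.1 to 148.2 in choroid plexus. Dgka, a diacylglycerol kinase that dampens receptor signals and is high in naïve T cells, was lower (290.0 to 138.3 CPM in meninges and 316.0 to 128.8 in choroid plexus). Nab2, a corepressor of the Egr factors, stood at 30.5 and 16.8 CPM in young and aged meningeal CD4 T cells, which was not past the rule. Ctla4 was the 1 gene of the list higher in meninges than in choroid plexus in aged CD4 T cells (192.6 against 70.6 CPM), and in young CD4 T cells Nab2, Pdcd1, Ctla4 and Tigit were higher in meninges. The part that state composition had in this was not tested.

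The immediate early genes known from tissue digestion were the list with most genes higher in meninges. Of 14, 9 were higher in young and 10 in aged CD4 T cells, 9 at each age in CD8 T cells, and 8 and 12 in neither T cells, with none lower and 11 to 14 measured, where 0.939% to 3.07% of all genes were higher. Their summed level was 4197 CPM in young and 6250.5 in aged meninges against 1085 and 1352 in choroid plexus. Junb, the AP-1 subunit with most UMIs of the list, stood at 1918 and 128.8 CPM in young and 2307 and 392.0 in aged CD4 T cells of meninges and choroid plexus.

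Of the 11 heat shock genes (9 or 10 measured), 1 and 2 were higher in meninges in young and aged CD8 T cells, 1 and 3 in neither T cells, and 3 and 4 in CD4 T cells, where 3.07% and 1.95% of all genes were higher. Those higher in CD4 T cells at both ages were Hspa1a, Hspa1b and Dnajb1. The summed level of the list was 4745 and 4386 CPM in young and aged meninges against 2991 and 3345 in choroid plexus. Hspa8, the constitutive Hsc70 gene, stood at 1782 and 998.4 CPM in young CD4 T cells, below the size of the rule, and Hsp90ab1, a constitutive Hsp90 gene, at 1803 and 1145 CPM. Between ages, 0 of 11 heat shock genes passed in CD4 T cells of either tissue, in meningeal CD8 or in choroid plexus neither T cells. Hspa1b passed in meningeal neither T cells (1 of 10 measured, where 3.44% of all genes were higher). Hspa1a passed in choroid plexus CD8 T cells (1 of 9 measured, where 2.46% were). The part of digestion in the level of the 6 genes was not tested.

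In single thinned cells, 4084 genes were ranked by the lowest of their 4 log2 ratios (1 per library) between cells with and without a UMI of the 6 genes, and the first 5 were Zfp36, Nfkbia, Ier2, Batf and Pcnp. Zfp36, which encodes an mRNA-destabilising protein induced early after stimulation, stood at 760.1 CPM in aged meningeal cells with and 235.5 in cells without such a UMI, and at 550.9 and 159.7 CPM in young meninges. Nfkbia, the NF-κB inhibitor, stood at 1617 and 662.4 CPM in aged and 1168 and 560.2 CPM in young meninges. In young choroid plexus this rested on 9 cells with such a UMI, and in aged choroid plexus on 34. Zfp36 and Ier2 are also in the list of immediate early genes known from tissue digestion.

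Across the 12 pools, the genes whose log2 level followed the summed level of the 6 genes most closely, of 2379 genes, were Nfkbid (Pearson r 0.99), Junb (0.98), Nfkbia (0.97), Tnfaip3 (0.96) and Dusp1 (0.96). Of these, Junb and Dusp1 are in the same list of immediate early genes, and Nfkbid is in the list of the receptor response. Fos ranked 14 with r 0.92, and Hspa1a, below the level needed for ranking, had r 0.84. The 12 points share 4 libraries and fall into a meningeal and a choroid plexus group, so these values describe mainly the difference of tissues.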

How the data were processed

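T cells sorted from young and aged meninges and choroid plexus were profiled with the 10x 5′ gene expression kit on an Illumina NextSeq. The deposited matrices hold raw UMI counts of each gene in each cell, which the authors obtained from Cell Ranger (version 3.1.0 per the file headers, 5.1.0 in the submitters' processing notes, which also name STAR and the mm10 build). The annotation is not given in the sources used here.

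Cells with 200 to 7000 genes and at most 5% mitochondrial UMIs were kept, following the study's methods. Scrublet (run in scanpy 1.11.5) removed 16 doublets from young and 0 from aged meninges, and 22 from young and 5 from aged choroid plexus. It marked none in aged meninges, so doublets can remain there. The 4 libraries held 718 to 1695 cells and 2295950 to 4262917 UMIs before filtering. Counts were summed per library and T-cell class and scaled to CPM, with ratios on the log2 scale after adding 10 CPM, exact Poisson, rate-ratio and Clopper-Pearson 95% intervals, and a limit of 3 counts where a pool was at 0. Intervals and limits cover counting error only. With 1 library per group no test was made, and a gene was called by size (at least 20 UMIs in the higher pool and a log2 ratio of at least 1). Shares used cells thinned to 1000 UMIs (seed 0), and shallower cells were left out of them. These were 1, 0 and 7 CD4, CD8 and neither T cells of young meninges, 6, 7 and 25 of aged meninges, 1, 3 and 2 of young choroid plexus, and 1, 7 and 13 of aged choroid plexus.

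The genes named beyond the 6 members, Fos and Hspa1a were, from each list, the 2 with most UMIs and those past the rule in both tissues or at both ages in the same class, and the 5 nearest in cells and over pools. Nab2 and Fosb were named after their values were seen. The members and lists were chosen with earlier results of these data known, and the comparison of tissues was added after the data had been seen. The scripts were tested on simulated counts. Promoter sequences came from RefSeq (GRCm38.p6). Python 3.11.15, numpy 2.4.6, pandas 2.3.3, scipy 1.17.1, anndata 0.12.19 and matplotlib 3.10.9 were used.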

Additional observations from a re-analysis of the deposited data

Results flagged for a closer look

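Cells that failed the filters on genes and mitochondrial UMIs, and so entered no comparison, also held UMIs of the 6 genes. Summed over the 6 genes they stood at 347.4 CPM (interval 291.5 to 410.9) in 259 such cells of aged meninges and at 145.1 CPM (87.4 to 226.6) in 76 of young meninges. The choroid plexus values were 42.3 CPM (15.5 to 92.2) in 87 cells of young and 96.0 CPM (62.7 to 140.6) in 171 cells of aged mice. The order of the 4 libraries was the same as in the cells that were kept, but only aged meninges stood apart. The intervals of the other libraries overlapped one another.

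Egr1 in neither T cells had a log2 ratio of aged over young of −0.032 in meninges and 0.82 in choroid plexus and was noted because the signs differ. The meningeal ratio of 0.971 (0.630 to 1.50) did not differ from 1 beyond counting error, and its log2 value ranged from −0.56 to 0.57 over the alternatives. The choroid plexus value did not reach the size of the rule, and the difference between the tissues was not tested.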

How the results depend on the processing

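No paired analysis was possible because each group was 1 library, and for the same reason no replicate could be left out. The counts that follow cover the comparisons by age and between tissues, and the ratios of CD4 to CD8 T cells are not among them. The sign of values past the rule was kept in 99 of 99 alternatives for the summed genes and 253 of 253 for single genes. The rule does not apply to shares, of which differences larger than their own margin kept their sign in 70 of 70. Such values start away from 0, and smaller ones were not counted. Of the latter, the share difference by age changed sign in choroid plexus CD4 (−1.14 to 6.49 points), choroid plexus CD8 (−3.51 to 1.11) and meningeal CD4 T cells (−0.348 to 9.33). It did not in meningeal CD8 (0.396 to 13.0) and choroid plexus neither T cells (3.26 to 5.42). By age and between tissues, the log2 ratio fell below 1 in at least 1 alternative for 2 of 9 calls of the summed genes and 5 of 23 of single genes. The summed calls were aged over young in meningeal CD8 T cells (lowest 0.65) and in choroid plexus neither T cells (0.47). The single calls were Egr1 in choroid plexus CD4 T cells by age (0.50 thinned before summing, 0.87 with doublets kept, 0.71 with 2 UMIs for a class), Nr4a1 in choroid plexus neither T cells by age (0.20 without cells holding other markers, 0.9997 with no filter on cells), Egr1 between tissues in young CD4 (0.88, 0.86 and 0.43 under the first 3 of these settings) and in young neither T cells (0.078 without Fos or Hspa1a cells), and Nr4a3 between tissues in aged CD4 T cells (0.46 thinned before summing). The Nr4a2 log2 ratio of aged over young meninges ranged from 1.09 to 2.14 in CD4, 1.18 to 2.10 in CD8 and 1.81 to 2.65 in neither T cells. The causes of the moves below were not tested. UMIs per cell limit the shares, and the few UMIs of the choroid plexus limit its ratios.

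The share of cells with a UMI of the 6 genes, meninges minus choroid plexus in percentage points, rose without thinning from 19.3 to 32.2 (young CD4), 18.8 to 30.3 (aged CD4), 8.08 to 27.0 (young CD8), 13.5 to 33.6 (aged CD8), 17.4 to 30.1 (young neither) and 22.5 to 35.6 (aged neither), and the Fos split from 6.87 to 15.8 in young and 11.3 to 23.6 in aged meninges. At 2000 UMIs the tissue values were 25.1, 28.5, 16.3, 28.3, 24.2 and 36.9 in the same order, the Fos split in aged meninges 18.5, and the share of aged minus young meninges 13.0 in place of 3.97 (CD8) and 18.1 in place of 9.18 (neither). At 500 UMIs the tissue values were 10.2 in young CD4, 8.78 in young neither and 13.3 in aged neither T cells, and the Hspa1a split in young meninges was 22.5 in place of −0.363.

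For the log2 ratio of the summed genes, adding 1 CPM gave 3.75 in place of 3.31 between tissues in aged CD8 T cells. Thinning before summing gave 0.65 in place of 1.16 (aged over young, meninges CD8), −0.74 in place of 0.07 (choroid plexus CD8), 0.69 in place of 0.94 (meninges neither) and 3.72 in place of 3.03 (tissues, young neither). Asking for 2 UMIs to call a class gave, in CD4 T cells, 1.29 in place of 2.11 (choroid plexus by age), 2.44 in place of 2.03 (tissues, aged) and a share difference by age in choroid plexus of −1.14 in place of 3.55. Without cells with Fos or Hspa1a UMIs the meninges by age stood at 0.36 in place of 0.68 (CD4) and 1.19 in place of 0.94 (neither), and aged CD4 T cells between tissues at 1.41 in place of 2.03, with a share difference of 11.7 in place of 18.8. Without cells holding markers of other cell types the values by age were 0.33 (meninges CD4), −1.20 (choroid plexus CD8), 0.75 (meninges neither) and 0.47 in place of 1.57 (choroid plexus neither), and between tissues 1.49 in place of 2.21 (young CD8), 3.81 (aged CD8) and 2.98 in place of 2.40 (aged neither). Without gamma-delta or natural killer marker cells the aged CD8 value between tissues was 2.92.

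The counts of all genes called by age, higher and lower, were 250 and 110 in meningeal CD4 T cells, 458 and 193 with 1 CPM added and 141 and 57 with at least 50 UMIs asked for. In choroid plexus CD4 T cells 333 and 88 became 133 and 47 with 50 UMIs, and the lower count 135 with 1 CPM and 166 with no minimum. In meningeal CD8 T cells 177 and 101 became 330 and 245 with 1 CPM and 94 and 63 with 50 UMIs. In choroid plexus CD8 T cells 172 and 61 became 545 and 108 with 1 CPM and 100 and 33 with 50 UMIs, and the lower count 98 with no minimum. In neither T cells 255 and 105 became 540 and 244 with 1 CPM in meninges, and 258 and 102 became 438 and 171 with 1 CPM and 126 and 60 with 50 UMIs in choroid plexus.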
